A study of Mus musculus with 19 samples.

Results

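The genes described here are those of sarcoplasmic reticulum calcium handling, taken as a list of 10 names: Cacna1s, Ryr1, Trdn, Jph1, Casq1, Casq2, Atp2a1, Atp2a2, Sln and Pln. Every probe that the array files name for one of them was used, which gave 22 of 41174 probes and 10 of 27793 gene names. No measured value set the choice of probes, but the list was drawn up with earlier results of these data known. Each gene is described by its lead probe, which had the highest average of its 4 group means. Its other probes are given beside it or in the plot of all probes.

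In a muscle fibre, an action potential runs down the T-tubule and is sensed by the L-type calcium channel, which opens the ryanodine receptor of the facing sarcoplasmic reticulum. Calcium released from its store on calsequestrin starts contraction, and the SERCA pumps return it to the reticulum, braked by the small membrane proteins sarcolipin and phospholamban. Fast fibres are known for the Atp2a1 and Casq1 forms, and slow and cardiac muscle for Atp2a2, Casq2 and Pln. Class IIa histone deacetylases, HDAC4 and HDAC5 among them, are known as repressors that bind the muscle transcription factor MEF2.

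The data were 19 Agilent whole-genome mouse arrays of 1 colour, each of a sample with its own labels. C2C12 is a mouse myoblast cell line. The control cells, labelled WT (n = 6), were a stable line carrying the empty plasmids pIRES neo3 and pIRES hyg3. The HDAC4&5 cells (n = 6) carried the same plasmids with human HDAC4 and human HDAC5. Both lines were kept under hygromycin and geneticin (500 µg/mL) and harvested 48 h after seeding. Soleus muscle came from male mice of 12 weeks on the C57BL6J background, fasted for 5 h. The db mice (n = 4) were db +/+, homozygous for the leptin receptor mutation and written db/db, and the Con mice (n = 3) were their heterozygous db -/+ littermates. Each array was labelled from 100 ng of RNA.

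The level of a probe is the log2 of its processed signal relative to the 75th percentile of its array, so that 1 unit is a doubling. That percentile was 423 to 1639 intensity units on C2C12 arrays and 148 to 529 on soleus arrays, and 46.6% to 57.4% of probes were well above background. In the HDAC4&5 cells the mouse Hdac5 probe rose by 1.43 (SE 0.27, limma adjusted p = 0.000357), and the mouse Hdac4 probe differed by -0.04 (adjusted p = 0.624). The plasmids are human, so these mouse probes need not read them. In soleus the Lepr probe, which reads the gene mutated in db/db mice, was well above background on 0 of 4 db arrays and 1 of 3 Con arrays, and checks no label. On the soleus arrays, above all those of the second slide, the brightest probes were saturated.

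The probe sequences that carry the main contrast between probes of the same gene are shown first. Probe 2 of Atp2a1, both leading probes of Ryr1 and the probe of Casq1 each cover an interval of the genome longer than the 60 bases of the probe, so they cross at least 1 exon junction of the mature RNA. Probe 1 of Atp2a1 lies within 60 consecutive bases. Their positions are chr7:29788789-29789487 and chr7:29789818-29790524 for Ryr1, chr7:133591703-133591762 and chr7:133590098-133590441 for Atp2a1, and chr1:174140602-174142105 for Casq1, on mm9 as the files give it and all on the minus strand. The probes read 5′ to 3′ as follows, with no base marked.
Ryr1 probe 1: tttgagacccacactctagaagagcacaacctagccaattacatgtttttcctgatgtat
Ryr1 probe 2: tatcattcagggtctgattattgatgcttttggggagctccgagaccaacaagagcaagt
Atp2a1 probe 1: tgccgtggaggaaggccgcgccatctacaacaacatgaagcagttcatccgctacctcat
Atp2a1 probe 2: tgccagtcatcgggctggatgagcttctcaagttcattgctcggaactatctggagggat
Casq1 probe 1: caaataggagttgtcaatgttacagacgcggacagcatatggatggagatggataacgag

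RefSeq promoters (GRCm38.p6) were at hand for 6 of the 10 genes, and were searched on both strands in the 250 bases before the start of the gene. The E-box, the letters CANNTG read by MyoD and its relatives, was present in 5 of the 6, as in 66.19% of 32536 distinct promoters. The narrower form CAGCTG, a subset of CANNTG, was present in 3 of the 6, in Atp2a1, Cacna1s and Casq1, and in 13.05% of all. The MEF2 motif was present in 1 of the 6, Casq2, and in 2.89% of all. The Ryr1 window held neither set of letters. The 150 bases before the start are shown for 4 genes that fell in the HDAC4&5 cells, since the promoters there differ in what they hold: chr1:136052661-136052810 and chr3:102086265-102086414 on the plus strand, chr7:126463074-126463223 and chr7:29125152-29125301 on the minus strand. Capitals mark E-boxes, and in Casq2 also the MEF2 match that comes before its E-box.
Cacna1s promoter: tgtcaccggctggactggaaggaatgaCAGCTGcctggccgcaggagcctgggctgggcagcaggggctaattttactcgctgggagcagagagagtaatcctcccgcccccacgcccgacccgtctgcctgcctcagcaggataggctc
Casq2 promoter: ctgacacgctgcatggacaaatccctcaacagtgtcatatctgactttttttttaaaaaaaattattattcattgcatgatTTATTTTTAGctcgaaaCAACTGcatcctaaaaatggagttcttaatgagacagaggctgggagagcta
Atp2a1 promoter: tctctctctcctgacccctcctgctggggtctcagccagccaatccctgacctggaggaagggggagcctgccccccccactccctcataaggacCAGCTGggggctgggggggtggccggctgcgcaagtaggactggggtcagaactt
Ryr1 promoter: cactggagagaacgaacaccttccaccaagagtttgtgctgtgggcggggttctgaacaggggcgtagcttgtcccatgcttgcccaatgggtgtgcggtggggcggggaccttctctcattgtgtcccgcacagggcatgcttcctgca

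The first comparison asked how the calcium handling genes differed between C2C12 cells carrying HDAC4 and HDAC5 and control C2C12 cells. Of the 10 genes, 9 could be tested, and all 9 fell in the HDAC4&5 cells. None rose. Cacna1s, Trdn, Sln, Casq1 and Ryr1 entered the test only through their detection in control cells, which largely set their direction in advance. The stricter filter on dim probes left 4 genes, Atp2a1, Atp2a2, Casq2 and Jph1, and all 4 were lower on the lead probe. Over all genes tested on these arrays, 31.2% were called lower and 35.4% higher (limma adjusted p under 0.05, 14129 genes). The median difference of the 9 was -3.46, beside 0.06 over all genes tested. That median is the value of Casq1, which was well above background on only 1 of 6 HDAC4&5 arrays, so its size is uncertain. The ranges of the lines overlapped on the lead probes of Atp2a1, Jph1 and Pln. On the lead probes Ryr1 and Cacna1s had the widest differences and Jph1 and the pumps the narrowest, an order that does not hold for probe 2 of Atp2a1, at least 25.6-fold lower. Trdn, Sln and Casq1 were already dim in control cells, with means of -3.27, -3.99 and -3.37. They were at background on all or most HDAC4&5 arrays, so how far they fell and their place in this order are not known.

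**Figure D1:**
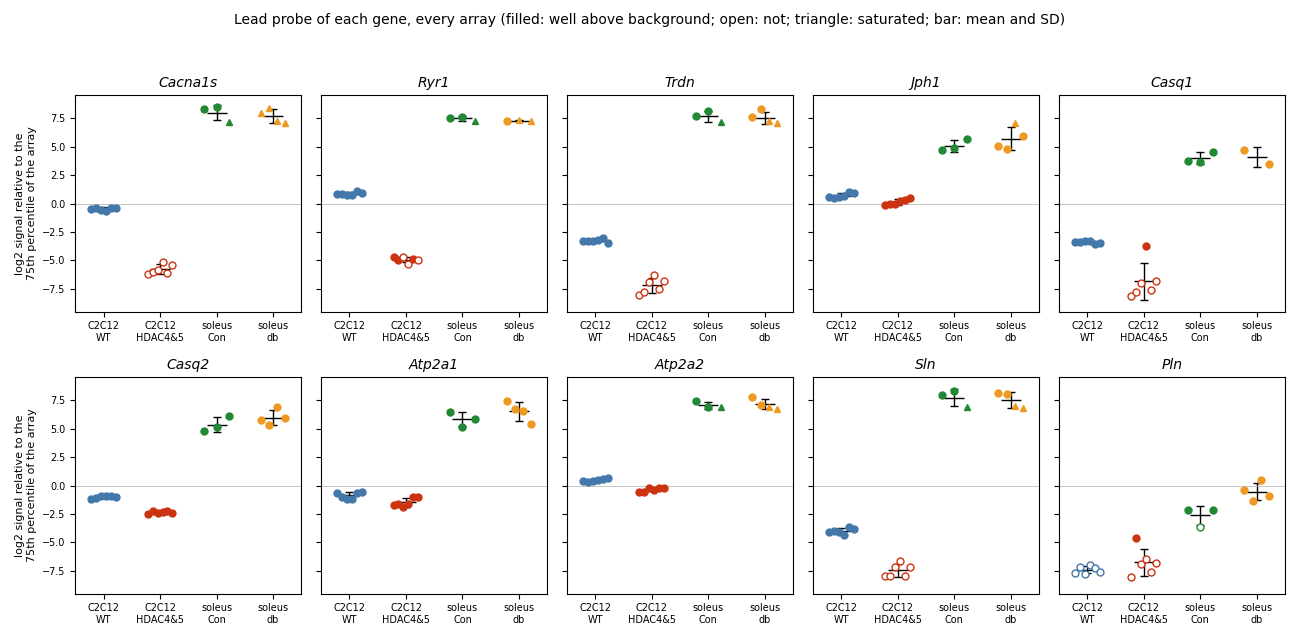
Log2 level of the lead probe of each gene on every array, by group. Filled points are well above background, open points are not, triangles are saturated, and the bar gives the mean and SD; in the HDAC4&5 cells Cacna1s, Trdn and Sln lie at background on all 6 arrays, while every gene but Pln is above 3 on all soleus arrays.

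Cacna1s encodes the pore of the voltage-sensing L-type channel of the T-tubule. Its level in control cells ran from -0.64 to -0.36 with a median of -0.43, and in HDAC4&5 cells from -6.18 to -5.10 with a median of -5.95. All 6 control arrays detected it, and all 6 HDAC4&5 arrays were at background. The fold was therefore a bound, at least 28.0-fold lower (fitted difference -5.31, adjusted p = 1.36e-11). Its second probe was not well above background on any control array and measured no difference in cells.

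Ryr1 encodes the release channel of the sarcoplasmic reticulum. Probe 1 ran from 0.76 to 1.09 in control cells (median 0.84) and from -5.32 to -4.70 in HDAC4&5 cells (median -4.93), with 3 of those 6 arrays well above background. The difference was -5.80 (SE 0.10, adjusted p = 3.68e-14). Probe 2, which covers another exon junction, gave -5.88 (SE 0.20, adjusted p = 1.83e-11), and the probes thus differed by less than their errors. Probe 3, taken from a separate cDNA, was near background in both lines, with means of -4.95 and -5.34, and was not tested.

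Trdn encodes triadin and Jph1 encodes junctophilin, which hold the release channel and the T-tubule together at the junction. Trdn ran from -3.48 to -3.05 in control cells and was at background on every HDAC4&5 array, which made it at least 4.03-fold lower (adjusted p = 1.57e-08). Its probe 2 gave at least 2.87-fold lower (adjusted p = 2.31e-08), and its probes 3 and 4 were at background in both lines. Jph1 fell far less. Its level was 0.45 to 0.97 in control cells (median 0.59) and -0.14 to 0.45 in HDAC4&5 cells (median 0.08), so the ranges overlapped at the edge. The difference was -0.56 (SE 0.13, adjusted p = 0.00142), and -0.52 (SE 0.11, adjusted p = 0.00093) with probe 2. A required fold of at least 1.5 would drop Jph1 from the calls, since it was 1.48-fold lower.

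Casq1 and Casq2 encode the calsequestrins, the store proteins of the reticulum. Casq1 ran from -3.55 to -3.26 in control cells. In HDAC4&5 cells 5 arrays were at background, between -8.11 and -6.82, and replicate 4 stood alone at -3.71. The difference over all arrays was -3.46 (SE 0.59, adjusted p = 0.000179), and -4.08 (SE 0.21, adjusted p = 4.31e-09) without that array, a choice made after its value was seen. Casq2 was well above background on all 12 arrays. It was -1.19 to -0.93 in control cells (median -0.98) and -2.46 to -2.27 in HDAC4&5 cells (median -2.38). The groups lay far apart for their spread, with a difference of -1.34 (SE 0.06, adjusted p = 3.95e-10) or 2.54-fold lower.

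The pumps gave different answers by probe. Atp2a1 encodes SERCA1. On probe 1 it ran from -1.17 to -0.53 in control cells (median -0.86) and from -1.91 to -1.01 in HDAC4&5 cells (median -1.66). The groups overlapped, and the difference was -0.62 (SE 0.18, adjusted p = 0.008). On probe 2, across the exon junction, control cells ran from -0.72 to -0.54 and all 6 HDAC4&5 arrays were at background, which is at least 25.6-fold lower (adjusted p = 1.19e-11). These probes did not read the same change, and which of them follows the Atp2a1 transcript was not tested. Atp2a2 encodes SERCA2. Its lead probe was 0.31 to 0.63 in control cells (median 0.46) and -0.56 to -0.18 in HDAC4&5 cells (median -0.32), a difference of -0.84 (SE 0.08, adjusted p = 1.03e-06). Its probes 2 and 3, also well above background on all 12 arrays, gave 0.04 (SE 0.09, adjusted p = 0.731) and 0.25 (SE 0.15, adjusted p = 0.159). The call on Atp2a2 therefore rested on the lead probe, and the mean of its probes gave -0.04 (adjusted p = 0.786).

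Sln and Pln encode sarcolipin and phospholamban, the inhibitors of the pumps. Sln ran from -4.35 to -3.66 in control cells (median -4.01) and was at background in all HDAC4&5 cells, at least 2.44-fold lower (adjusted p = 1.82e-08). Pln rose above background on no control array and only on replicate 2 of the HDAC4&5 arrays, which read -4.62, and it was not tested. C2C12 cells of either line thus gave no measurable contrast for it.

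**Figure D2:**
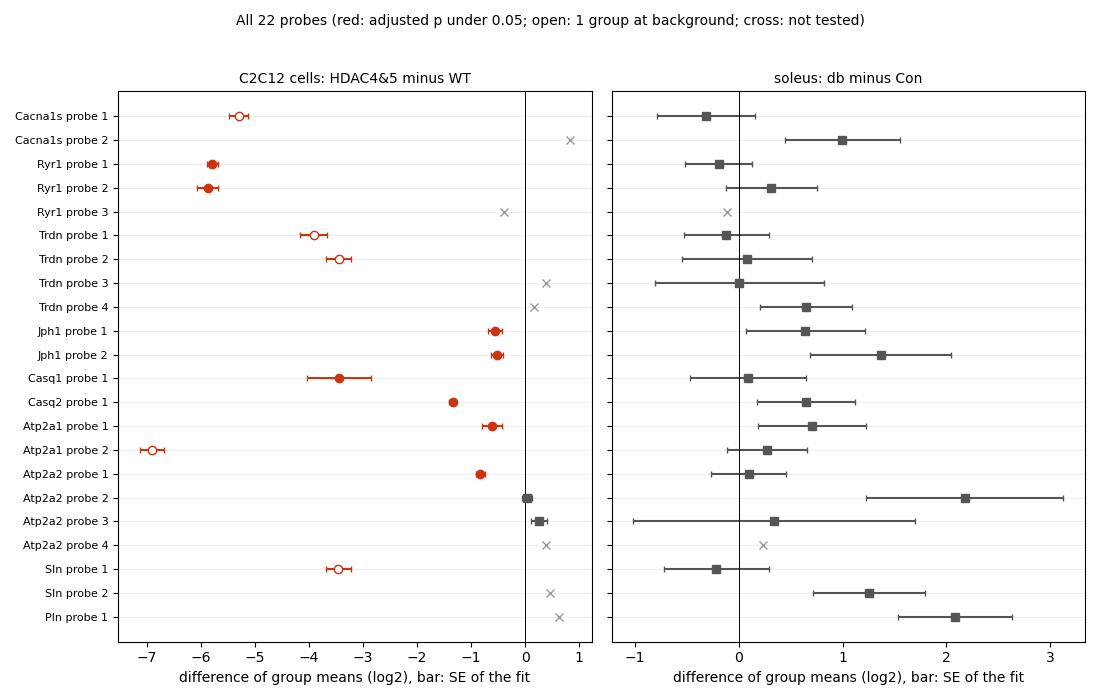
Difference of group means on the log2 scale for each of the 22 probes, with the SE of the fit, in C2C12 cells and in soleus. Red marks an adjusted p under 0.05, an open symbol a group with no array well above background, and a cross a probe that was not tested; the probes of Atp2a1 and of Atp2a2 do not coincide in C2C12 cells, and no probe is red in soleus.

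Within each of the 3 slides that held both lines, all 9 tested genes were lower in HDAC4&5 cells. With slide as a block the same 9 were called. Background correction with normexp, which adds 50 units to each signal, ended the calls on Trdn (-0.46, adjusted p = 0.302), Sln (-0.21, adjusted p = 0.636), Casq1 (-0.46, adjusted p = 0.317) and Atp2a1 (-0.37, adjusted p = 0.0911). The labels do not say whether the arrays of a line came from separate cultures, so the p-values measure the spread between these samples, which may be technical.

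Other genes of calcium handling were taken from a list of 47, of which 44 were on the array by name and 38 were tested. Of these, 24 fell and 7 rose in HDAC4&5 cells, where 31.2% of all genes tested were called lower and 35.4% higher. Cav3, Dysf, Ryr3, Hrc, Camk2a, Jph2, Cacng1 and Jsrp1 entered the test only through their detection in control cells. That largely set their direction in advance. Among the partners at the T-tubule and junction, 8 of 9 fell, with Cacng1, a subunit of the L-type channel, 648-fold lower and Jph2, the second junctophilin, 252-fold lower. Only 3 and 2 of the 6 HDAC4&5 arrays were well above background for these, so the size of both folds is uncertain. Mtm1, a lipid phosphatase, rose by 1.33 in log2 (adjusted p = 0.000296), with 4 of 6 control arrays well above background. Of 13 tested release channels and partners, 7 fell and 1 rose. Jsrp1, a junctional protein of the reticulum, was 645-fold lower with 3 of 6 HDAC4&5 arrays well above background, and Ryr3, a second ryanodine receptor, was at least 8.59-fold lower.

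Of the 3 tested buffers 2 fell and 1 rose. Hrc, a lumenal calcium-binding protein, was at least 66.5-fold lower and Srl, sarcalumenin, 10.6-fold lower, while Calr, the calreticulin of the general endoplasmic reticulum, rose 1.25-fold (adjusted p = 0.00039). In store-operated entry and surface extrusion 3 of 4 fell, led by the plasma membrane pump Atp2b1 (-1.16) and the store sensor Stim2 (-1.11), and Stim1 rose by 0.62. Both genes of mitochondrial uptake fell, by small amounts: Mcu, the uniporter pore, by 0.77 and Micu2, a partner of the uniporter, by 0.18. Of the kinases and phosphatase subunits 2 fell and 3 rose. Camk2a was at least 1.84-fold lower and Camk2d rose by 0.62 (adjusted p = 0.00085). The 1 other pump tested, Atp2a3, differed by 0.20 and was not called.

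Markers of the cells moved with these genes. All 6 skeletal muscle markers fell, and their summed signal was 81.8 to 122 times the 75th percentile on control arrays and 0.285 to 0.530 times on HDAC4&5 arrays. Myod1, which defines the myoblast, was detected on all control arrays and at background on all HDAC4&5 arrays, at least 260-fold lower. All 8 tested fast fibre markers also fell, with the sum of the fast list going from 104 to 143 times down to 0.486 to 0.789 times. Of 6 slow fibre markers 5 fell. The other, the slow myosin Myh7, rose 2.74-fold (adjusted p = 1.83e-08) and was well above background on all arrays of both lines. Several muscle markers, among them Myod1, Ttn, Myog and Tnni1, entered the test only through control cells, which largely set their direction in advance. Markers of other cells went both ways. Of 3 fibroblast markers, Col1a1 rose 10.2-fold and Pdgfra 4.54-fold while Dcn fell by 1.31 in log2, and their sum went from 5.12 to 6.12 times up to 22.8 to 25.9 times. Lyz2, a macrophage gene, rose at least 4.25-fold and Cd68 fell by 0.41 in log2. Of 6 adipocyte markers 1 was tested, Fabp4, which rose 4.58-fold with 1 of 6 control arrays above background, and adiponectin was at background in both lines. The part of these shifts in the fall of the calcium genes was not tested.

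**Figure D3:**
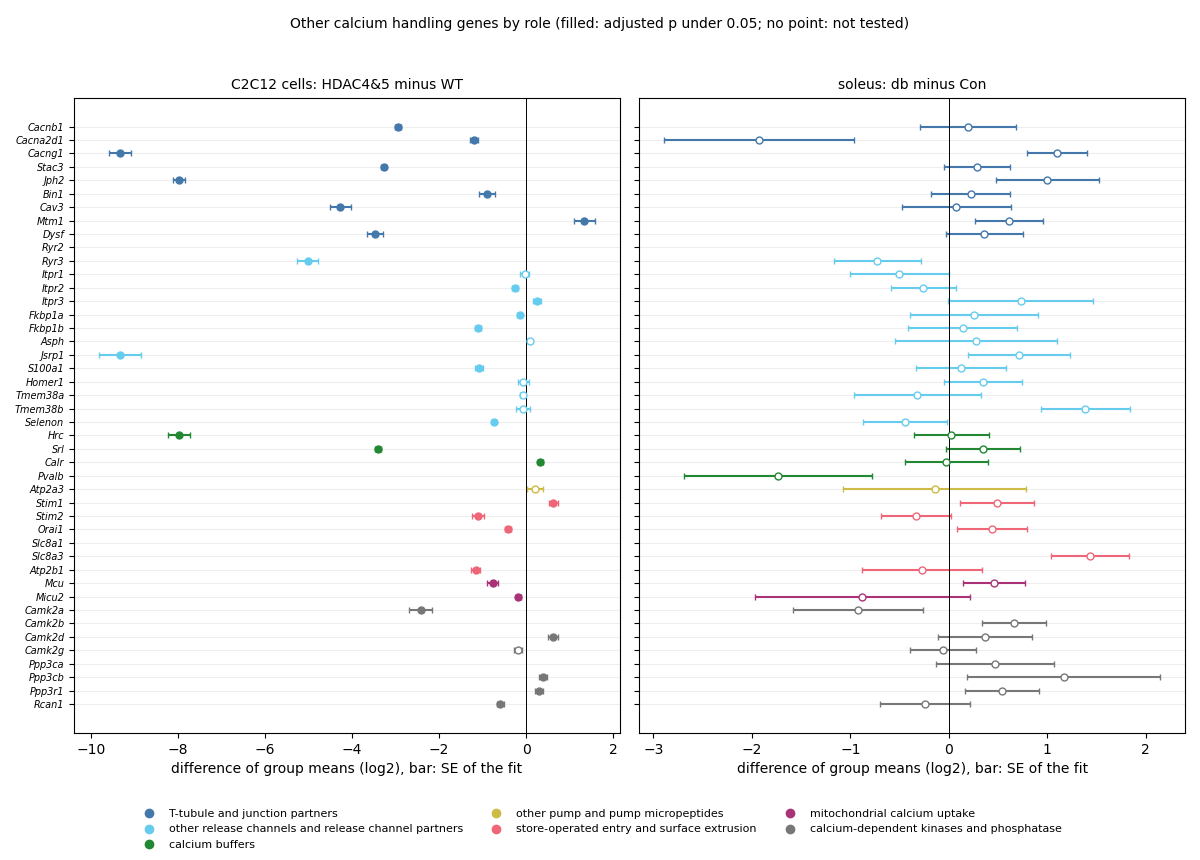
Difference of group means on the log2 scale, with the SE of the fit, for the other calcium handling genes on the array, coloured by role. Filled points have an adjusted p under 0.05 and genes without a point were not tested; in C2C12 cells most of the T-tubule and junction genes lie far left of 0, and in soleus no point is filled.

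The second comparison asked how the same genes differed between soleus of db/db mice and of their heterozygous littermates. All 10 genes were tested, and none passed an adjusted p of 0.05 in either direction. Over all genes tested, 0.00765% were called higher and 0.00765% lower (13068 genes, 1 each way). At an unadjusted p under 0.05, 1 of the 10 genes passed, Pln, beside 6.09% of all genes tested. The median difference of the 10 was 0.09, beside 0.14 over all genes. In whole muscle, fewer cells of a type and less RNA per cell cannot be told apart.

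Pln had the widest difference of the lead probes. On the Con arrays it read -2.15, -3.61 and -2.11, of which replicate 2 was not well above background. On the db arrays it read -0.37, -1.33, 0.46 and -0.92, all well above background. Every db array was thus above every Con array, by 2.08 between the means (4.24-fold, SE 0.55, unadjusted p = 0.00475, adjusted p = 0.566). Pln was the only 1 of the 10 lead probes without overlap, and the share of such genes among all tested was not counted. The difference was 2.03 within the slide that held 2 arrays of each group, and 1.88 within the slide that held 2 db arrays and 1 Con array. The first of these values includes Con replicate 2, so its size is uncertain. With slide as a block it was 1.97 (adjusted p = 0.13), and it ran from 1.59 to 2.35 when 1 array at a time was left out.

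Pln is also made in cardiac and smooth muscle, so markers of both were read beside it. Of 5 cardiac markers, 3 were tested and 0 were called. Their summed signal was 4.03 to 160 times the 75th percentile on Con arrays and 168 to 344 times on db arrays, where the lowest Con value comes from an array on which the Myh6 spot was dropped as an outlier. Nkx2-5 was well above background on no soleus array and Nppa on 1 of 7. Myh6 was by far the brightest in these sums, with means of 7.65 in db and 7.12 in Con, and was saturated on 2 db arrays. It differed by 0.53 (adjusted p = 0.957) and Tnni3 by -0.53 (adjusted p = 0.938). Tnnt2, which is also made in immature skeletal muscle, was 1.60 higher in db (unadjusted p = 0.0192, adjusted p = 0.743). Of 4 smooth muscle markers 0 were called, with sums of 172 to 400 times on Con and 22.2 to 302 times on db arrays. The lowest db value comes from an array without its Acta2 spot, and the other 3 db arrays lay from 141 to 302 times. The part of these cells in the Pln values was not tested.

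The other inhibitor, Sln, read 7.91, 8.32 and 6.90 on Con arrays and 8.17, 8.06, 6.97 and 6.78 on db arrays. Its 3 lower values were all saturated spots of the second slide, so the groups could be compared only on the first, where they differed by -0.01. The dimmer probe 2 of Sln, which was saturated nowhere, read -1.57, -1.65 and -0.67 on Con arrays and -0.37, -1.15, 0.92 and 0.43 on db arrays. The groups overlapped, and the difference was 1.25 (SE 0.54, unadjusted p = 0.0462, adjusted p = 0.697).

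The pumps did not separate the groups. Atp2a1 read 6.45, 5.17 and 5.85 on Con arrays and 7.39, 6.74, 6.55 and 5.42 on db arrays, a difference of 0.70 (SE 0.52, adjusted p = 0.957). On the first slide it was 1.26 and on the second 0.14. Probe 2 of Atp2a1 gave 0.27 (SE 0.39, adjusted p = 0.925), with 1 db spot and 1 Con spot saturated. Atp2a2 read 7.38, 6.88 and 6.86 on Con arrays and 7.79, 7.06, 6.92 and 6.76 on db arrays, a difference of 0.09 (SE 0.36, adjusted p = 0.983). Its 3 values on the second slide were saturated. Probe 2 of Atp2a2 was measured on both groups only on the second slide, where both db spots were saturated and lay 0.79 above the 1 Con spot, so its difference over all arrays, which the plot of all probes shows, mixes slide with group.

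Neither calsequestrin was called, which does not show that their levels were alike. Casq2 read 4.81, 5.10 and 6.07 on Con arrays and 5.75, 5.33, 6.88 and 5.92 on db arrays. The difference was 0.64 (SE 0.47, adjusted p = 0.953), and within slides 1 and 2 it was 0.59 and 0.33. Casq1 read 3.71, 3.66 and 4.57 on Con arrays and 4.70 and 3.44 on the 2 db arrays whose spot was not an outlier. The difference of 0.09 (SE 0.56, adjusted p = 0.99) leaves those 2 dropped spots out.

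Voltage sensor, release channel and triadin were at the top of the scanner range. Cacna1s read 8.32, 8.46 and 7.19 on Con arrays and 7.96, 8.39, 7.29 and 7.05 on db arrays, and was saturated on all 4 db arrays and on Con replicate 3, so that only a lower limit of its db level was measured. Its dimmer probe 2 was saturated nowhere and gave a difference of 1.00 (SE 0.56, adjusted p = 0.774). Ryr1 read 7.54, 7.61 and 7.26 on Con arrays and 7.24, 7.34 and 7.25 on the 3 db arrays that measured it, a difference of -0.20 (SE 0.32, adjusted p = 0.968), with the second slide saturated. Probe 2 of Ryr1, saturated on the same slide, gave 0.31 (SE 0.44, adjusted p = 0.925). Trdn differed by -0.12 (SE 0.41, adjusted p = 0.98), also with the second slide saturated. Its probes 3 and 4, saturated nowhere, gave 0.0038 (SE 0.82, adjusted p = 0.999) and 0.65 (SE 0.44, adjusted p = 0.827). Within slides 1 and 2 db was higher, by 0.29 and 0.50 on probe 3 and by 0.83 and 0.30 on probe 4. Jph1 read 4.68, 4.85 and 5.63 on Con arrays and 5.04, 4.76, 7.05 and 5.92 on db arrays, a difference of 0.64 (SE 0.57, adjusted p = 0.958). The highest of these db values was a saturated spot. Its probe 2, saturated nowhere, gave 1.37 (SE 0.68, adjusted p = 0.745).

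**Figure D4:**
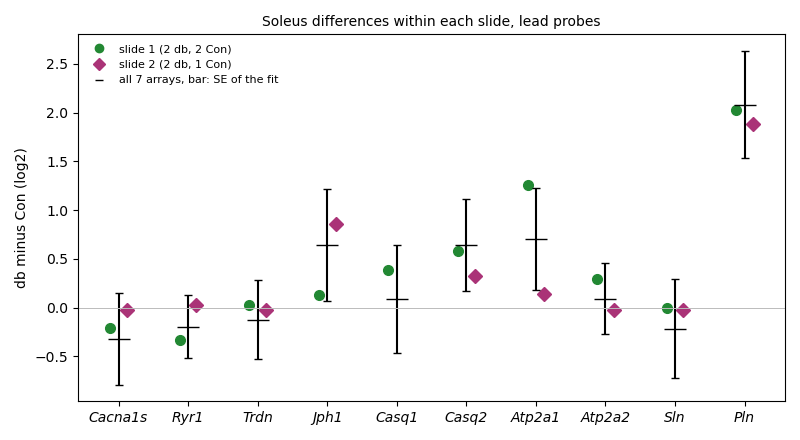
Difference between db and Con soleus on the log2 scale for each lead probe, within slide 1 (circles), within slide 2 (diamonds) and over all 7 arrays (bar, with the SE of the fit). Pln is near 2 on both slides, and Casq1 has no value on slide 2 because its db spots there were outliers.

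Among the other calcium handling genes 42 were tested in soleus and 0 were called. The median of their differences was 0.24, beside 0.14 over all genes tested. At an unadjusted p under 0.05 there were 3, or 7.14% of those tested beside 6.09% of all genes, a share near the background. All 3 were higher in db: Cacng1 (2.15-fold), Slc8a3 (2.70-fold), a sodium-calcium exchanger, and Tmem38b (2.61-fold), a cation channel of the reticulum. These 3 were named after their values were seen. Fibre markers were not called either, 0 of 10 fast and 0 of 6 slow. The fast markers with the fewest saturated spots, Actn3 (-1.75), Myh4 (-2.48) and Mybpc2 (-2.30), had lower means in db. The other markers of both lists had saturated spots in both groups, and among them Tnni1 (0.24) and Tnnc1 (0.26), both slow, were higher in db. These lists therefore cannot show that fibre composition was alike. With 3 arrays against 4, the number of arrays limits what this comparison can show. The main fit had no term for slide, so its SEs also carry differences between slides.

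The third comparison set control soleus against control C2C12 cells, to place the levels in cells beside those in muscle. Of the 9 genes tested, 9 were higher in soleus and 0 lower. Over all genes, 36.9% were called higher and 37.7% lower (15068 genes). The median of the 9 differences was 6.69, beside -0.02 over all genes. Soleus carried slow fibre markers: Myh7, the slow myosin, was saturated on all 3 Con arrays, and all 6 slow markers were higher than in cells. So were 9 of 10 fast markers, and the fast myosins Myh1 and Myh2 were also saturated on all 3, so these lists place the tissue as skeletal muscle and do not tell slow from fast.

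By difference on the lead probes, the genes lay in this order. Sln was 11.70 higher (SE 0.29) and Trdn 10.93 (SE 0.20). Cacna1s followed at 8.46 (SE 0.26), Casq1 at 7.35 (SE 0.21), Atp2a1 at 6.69 (SE 0.27), Ryr1 at 6.60 (SE 0.14), Atp2a2 at 6.57 (SE 0.16), Casq2 at 6.35 (SE 0.25) and Jph1 at 4.38 (SE 0.23). From Atp2a1 to Casq2 each gene differed from the next by less than the larger of their SEs. Probe 2 gave 7.44 (SE 0.14) for Atp2a1, 5.65 (SE 0.22) for Ryr1 and 5.34 (SE 0.56) for Atp2a2, so the order depends on the probe. The largest adjusted p of the 9 was 3.19e-08, for Jph1. Pln was not tested, since 1 Con array was not well above background, and was at least 7.99-fold higher in soleus.

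Some dimmer probes gave only bounds. They entered the test through their detection in soleus, which set their direction in advance. Probes 3 and 4 of Trdn, at background in all control cells, were at least 930-fold and at least 94.9-fold higher in soleus. The second probes of Cacna1s and Sln were at least 21.8-fold and at least 20.1-fold higher. Probe 3 of Atp2a2 gave 0.37 (SE 0.51, adjusted p = 0.527), against 6.57 on the lead probe. Con replicate 3 was saturated for 5 of the lead probes, Cacna1s, Ryr1, Trdn, Atp2a2 and Sln, which lowers their means.

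Of the other calcium genes, 29 of 41 tested were higher in soleus and 6 lower, where 36.9% of all genes were called higher and 37.7% lower. Among them Pvalb, Camk2b and Slc8a3 entered the test only through their detection in soleus, which largely set their direction in advance. Pvalb, the soluble calcium buffer of fast fibres, was at least 2153-fold higher, Camk2b 744-fold with 2 of 6 cell arrays above background, Cav3, the caveolin of muscle, 709-fold, Asph 112-fold, Hrc 98.8-fold with 1 of 2 Con spots saturated, Camk2a 77.1-fold and Tmem38a, saturated on all 3 Con arrays, at least 66.1-fold. Slc8a3 was 33.7-fold higher with 1 of 6 cell arrays above background, Dysf, the membrane repair protein dysferlin, 20.5-fold and Stim1 17.2-fold. Some genes were higher in control C2C12 cells than in soleus, among them Cacng1 (-2.62) and Calr (-1.91), named after their values were seen. Tissue, slide and RNA extraction cannot be told apart in this comparison, and soleus also carried markers that the cells lacked, such as adiponectin, at least 629-fold higher.

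Pairs of genes with the same role were also compared within each array, which removes the scaling between arrays. The probes of a pair differ in how bright they read, so only the difference of a ratio between groups is comparable. Of 7 ratios tested, 0 passed after Benjamini-Hochberg adjustment. In C2C12 cells the log2 ratio of Atp2a1 to Atp2a2 was -1.34 ± 0.23 in control and -1.13 ± 0.33 in HDAC4&5 cells (SD, n = 6 each, exact permutation p = 0.212, two-sided, adjusted p = 0.297). With all probes averaged that difference of 0.22 became -2.60 (exact permutation p = 0.00216, adjusted p = 0.0152), as probe 2 of Atp2a1 was then included. The ratio of Casq1 to Casq2 differed by -0.44 in C2C12 cells (exact permutation p = 0.184), with Casq1 set to the lowest measurable signal on 5 arrays.

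In soleus the ratio of Sln to Pln was 10.22 ± 1.29 on Con arrays (n = 3) and 8.03 ± 1.23 on db arrays (n = 4), a difference of -2.19 (exact permutation p = 0.0857, adjusted p = 0.267). Sln was saturated on 3 of these arrays and Pln stood at the lowest measurable signal on 1, so neither the ratio nor its p is firm. The smallest p that 3 against 4 arrays allow is 0.0286. The ratio of Atp2a1 to Atp2a2 differed by 0.61 (exact permutation p = 0.114, with Atp2a2 saturated on 3 arrays) and that of Casq1 to Casq2 by -0.12 (exact permutation p = 0.9, with only 2 db arrays). Between control soleus and control cells the ratio of Casq1 to Casq2 was -1.35 ± 0.21 (n = 3) and -2.35 ± 0.17 (n = 6), and every soleus array was above every cell array (difference 1.00, exact permutation p = 0.0119, the smallest possible here, adjusted p = 0.0833). The ratio of Atp2a1 to Atp2a2 differed by 0.13 there (exact permutation p = 0.524).

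The genes whose levels most resembled each member over the 19 arrays were found among 12235 others, by the root mean square difference of log2 values after each gene was centred on its own mean. Cacna1s was closest to Myh8 (0.34) and Myh1 (0.38), which encode perinatal and fast myosins. Ryr1 was closest to Myom3 (0.39) and Tnnt3 (0.61), both of the sarcomere, over the 18 arrays that measured it. Jph1 had the nearest neighbour of all, Exoc6 (0.21), then Pdzrn3 (0.29). Casq2 followed with Galntl2 (0.30) and Usp13 (0.45). Trdn lay nearest to Smtnl1 (0.52) and Pgam2 (0.58), and Sln to Pgam2 (0.70) and Slc2a4 (0.73), the insulin-responsive glucose transporter.

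The pumps shared a neighbour: Atp2a2 was closest to Ldhb (0.36) and Phyhd1 (0.38), and Atp2a1 to Hspb6 (0.47) and Phyhd1 (0.47). Casq1, over 17 arrays, was closest to Adamts8 (0.80) and Hspb7 (0.82). The 2 nearest to Pln carried only transcript identifiers in the files, at 0.71 and 0.76. These values largely reflect the gap between soleus and cells, which all 19 arrays share, and are a description only.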

How the data were processed

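Arrays of 12 C2C12 samples and 7 soleus samples were used. The authors scanned each array and deposited, for every spot, the mean and background intensity and a processed intensity from Agilent Feature Extraction (9.5.1.1 in the submitters' notes), which is background-subtracted and carries no scaling from array to array. A series matrix was deposited as well, in which each value is the ratio of a processed intensity to an array constant. It was used by group only, because 2 db columns matched the scanner files of other db numbers and 4 soleus columns matched no file closely. No deposited column belonged to other samples (0).

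The log2 scale used here was computed from the deposited intensity: the processed intensity was divided by the 75th percentile of its array and log2 was taken. Control spots and outlier spots were left out and saturated spots kept. Symbols were updated through RefSeq accessions for 27198 probes, and positions are on mm9 as in the files. Exon and intron status was not looked up, as no genome of that build was used here. Groups were compared by limma 3.58.1 (R 4.3.3), on genes whose lead probe all arrays of 1 or both groups detected well above background, with Benjamini-Hochberg adjustment over all genes tested and a threshold of 0.05. A probe well above background on no array of a group was given as a bound, set from the dimmest probe that each array still detected. Ratios of paired genes were compared by exact permutation, two-sided. The steps were tested on simulated data.

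The members and lists were chosen with earlier results of these data known. A gene of the calcium list is not reported here. Named genes are all members, in each role of the calcium list the 2 with the largest difference among those called and well above background on every array of 1 group, the markers that define the tissue or cells, and for each member its 2 nearest genes.

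Deviations from the group means were correlated between same-numbered arrays, by 0.195 to 0.555 across genes for 6 C2C12 pairs and 0.40 to 0.689 for 3 soleus pairs. Arrays of other numbers gave like values within a slide (0.223 to 0.529 and 0.314 to 0.743) and between slides at most 0.0519 and -0.389, so that a number stands for its slide. The alternatives were quantile normalization, normexp with an offset of 50, the deposited matrix, other filters on dim probes, all probes averaged or fitted singly, saturated spots left out, slide or replicate blocks, the methods' t-test, a required 1.5-fold change, an unadjusted p, and soleus arrays left out in turn. Leaving out HDAC4&5 replicate 4 was added after seeing the data. The methods state 3 biological replicates for each group, whereas the labels list 6, 6, 3 and 4 samples. Whether some C2C12 samples are repeats of 1 culture is therefore unknown, and SEs and p-values for them may be too small. The number of arrays limits the precision.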

Additional observations from a re-analysis of the deposited data

Results flagged for a closer look

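Casq1 in C2C12 HDAC4&5 cells stood apart on replicate 4, whose log2 level of -3.71 was well above background, while the other 5 arrays of the group lay between -8.11 and -6.82. The gap was 0.707 of the range of the group, above Dixon's critical value of 0.625 for 6 samples. It was the 1 value of this kind in 28 sets of 4 to 6 arrays that were looked at, and chance alone gives about 1 in 20. The reason was not tested.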

How the results depend on the processing

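In the C2C12 comparison the 9 called genes were lower on the lead probe and on the mean of all probes under every alternative that gave a value, but with probes fitted singly probes 2 and 3 of Atp2a2 gave 0.04 and 0.25. The count of called members was 5 with normexp background correction and 4 with the stricter filter on dim probes, which left 4 to test, and 5361 genes of all were called with a fold of at least 1.5, against 9397. In soleus the 2 called genes of all tested became 0 with normexp, 0 in the deposited matrix, 0 with the stricter filter, 1 with no filter, 1 by the methods' t-test after adjustment, 4 with all probes averaged and 52 with slide as a block. Leaving out 1 soleus array gave 0 to 1. At an unadjusted p, 796 genes and 1 member, Pln, passed in limma, and 940 genes and 1 member by the methods' t-test. With the replicate block, which follows the slide, the counts were 9 members in C2C12 cells and 0 members and 3 genes in soleus, so the pairing changed no call on a member.

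Small soleus differences changed sign, none of them called. With all probes averaged Ryr1 was 0.15, Sln 0.52, Cacna1s 0.34 and Trdn 0.58. With normexp Ryr1 was 0.0295 and Trdn 0.0541. Quantile normalization gave Atp2a2 -0.27, the deposited matrix Casq1 -0.11, and saturated spots left out Trdn 0.0247. Trdn was 0.0041 with slide as a block and 0.0341 with the replicate block, and Sln 0.0218 with the latter. With 1 array left out Atp2a2 ran from -0.13 to 0.26, Casq1 from -0.54 to 0.72, Sln from -0.62 to 0.0876 and Trdn from -0.37 to 0.12. The cause of these changes was not tested.

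Of the paired ratios, averaging all probes turned Atp2a1 over Atp2a2 in C2C12 cells to -2.60, and brought past the threshold Atp2a1 over Atp2a2 between soleus and cells (3.74, against 0.13) and Casq1 over Casq2 there (1.00, the same value with a smaller adjusted p). Sln over Pln in soleus was then -1.45, with an adjusted p of 0.05 to the last digit. Normexp turned Casq1 over Casq2 to 0.37 in C2C12 cells and 0.0053 in soleus. Between soleus and cells 22226 genes were called with no filter, against 11234, and the 9 members kept their direction and call on the lead probe and on the mean of all probes, while probe 3 of Atp2a2 fitted singly was not called (0.37, adjusted p = 0.527). Saturation on the second soleus slide and probes at background limit what these arrays can show.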
